A study of Mus musculus with 8 samples.

Results

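The glucose transporter genes Slc2a1 and Slc2a3, the genes of the arrestin-domain proteins TXNIP and ARRDC4, which act against glucose uptake, and the transcription factor genes Mlxip and Mlx were followed across haematopoietic stem cells (HSCs) of the mouse. The genes were chosen by symbol, and all 6 were present among the 19909 genes of the deposited tables. RNA came from bulk HSCs purified from bone marrow, and 3 groups were sequenced. The AThi group held the 33% of HSCs with the lowest GFP signal from old mice aged over 24 months (n = 3), the ATlo group the 33% with the highest GFP signal from the same 3 old mice, and the young group unfractionated HSCs of mice aged 8 to 12 weeks (n = 2). Every group carried the Gfplc3/Gfplc3 genotype, a green fluorescent protein fused to the autophagosome protein LC3, and was isolated at steady state; the labels do not name the promoter behind the fusion. Because LC3 is degraded as autophagy proceeds, low GFP was read by the study as high autophagy. Young cells were not sorted on GFP, so age and the GFP gate cannot be told apart in the comparisons with young HSCs.

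Glucose enters blood cells through facilitative transporters, of which GLUT1 (Slc2a1) and GLUT3 (Slc2a3) are the main basal forms. TXNIP and its relative ARRDC4 are alpha-arrestins that bind such transporters and drive their removal from the cell surface, and TXNIP also binds thioredoxin. Both arrestin genes are textbook targets of a glucose-sensing pair of transcription factors, MondoA (Mlxip) and its obligate partner MLX, which bind paired E boxes known as carbohydrate response elements when phosphorylated sugars accumulate. The pair therefore forms a feedback loop in which more sugar inside the cell raises the brake on further uptake. HSCs at rest are known for a low reliance on oxidative metabolism.

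The promoter stretches that held an E box or the paired form are shown, since the known response element is a pair of E boxes. The paired form, searched with a looser pattern than the single E box, was found in Txnip. A single E box was found in Arrdc4 and Mlx. RefSeq windows of 300 bases, 250 before and 50 after the RefSeq start of the gene (build GRCm38.p6), were found for 5 of the 6 genes, all but Slc2a3. In the lines that follow, capitals in Txnip mark the paired form (searched on both strands as CACGNG, any 5 bases and CACGNG again), and capitals in Arrdc4 and Mlx mark the single E box CACGTG. The Txnip stretch is chr3:96557757-96557946 on the plus strand, the Arrdc4 stretch chr7:68749249-68749438 on the minus strand and the Mlx stretch chr11:101087230-101087275 on the plus strand, each written 5′ to 3′ along its gene.
Txnip: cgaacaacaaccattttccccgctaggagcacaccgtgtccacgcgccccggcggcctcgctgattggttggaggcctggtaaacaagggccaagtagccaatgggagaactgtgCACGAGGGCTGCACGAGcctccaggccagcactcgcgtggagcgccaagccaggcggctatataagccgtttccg
Arrdc4: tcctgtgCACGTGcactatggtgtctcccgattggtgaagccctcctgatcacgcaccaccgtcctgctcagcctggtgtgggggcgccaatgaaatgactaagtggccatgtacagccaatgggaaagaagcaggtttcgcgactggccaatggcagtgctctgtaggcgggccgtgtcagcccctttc
Mlx: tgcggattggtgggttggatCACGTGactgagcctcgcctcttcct
In Txnip the paired motif lay at bases -85 to -69 from the RefSeq start of the gene, a form held by 16 of 32851 mouse windows of the same length (0.0487%). Both of its parts read CACGAG, and the Txnip window held no CACGTG. The single E box lay at -193 to -188 in Arrdc4 and at -40 to -35 in Mlx, and 7.15% of windows hold one. These positions count from the RefSeq start, which in Arrdc4 and Mlx differs from the start of the gene given below. Neither motif was found in the windows of Slc2a1 and Mlxip. The Arrdc4 window also held the letters CCAAT 6 times over both strands, which 0.0791% of windows match or exceed, and the Txnip, Mlx and Mlxip windows held them 2 times each (11.7% of windows hold as many); this motif was searched after the windows had been read. A match of letters describes the window and does not show that a factor binds there.

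Read depth, recovered from the deposited values, was 33960216 to 45830216 reads in AThi libraries, 54512285 to 61341946 in ATlo libraries and 44021141 and 45590508 in young libraries. The deposited columns carry tags: O10, O11 and O12 occur once in AThi and once in ATlo, and D11 and D12 in young HSCs. Libraries with a tag ending in 12 stood apart from the others of their group in B cell markers, whose summed normalized counts (5 of 8 listed genes were in the tables) were 23977 in AThi O12, 10148 in ATlo O12 and 10785 in young D12 and at most 989 in the other 5 libraries. The RNA Xist, made from the inactive X chromosome, was at 97743 normalized counts in young D11. The libraries tagged 12 stood apart in Xist too, at 5810 in AThi O12, 2747 in ATlo O12 and 3869 in young D12, against 32.5 to 171 in the 4 old libraries tagged O10 and O11. All 10 HSC markers were above 0 in all 8 libraries, with summed levels of 113999 to 139861 in AThi, 84846 to 106768 in ATlo and 116015 to 117666 in young HSCs.

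Within old HSCs, both arrestin genes and the transporter gene Slc2a3 were higher in AThi than in ATlo, by 1.93-fold for Arrdc4, 1.70-fold for Txnip and 1.41-fold for Slc2a3 in the authors' deposited table. Slc2a1, Mlxip and Mlx were not called. A gene is called here at an adjusted p below 0.05 in the authors' DESeq2 Wald test, with Benjamini-Hochberg adjustment over all genes. That made 3 of 6 genes called, all higher in AThi, where 7.9% of all genes tested were called and 3.47% were called higher. The median log2 fold change of the 6 genes in the authors' deposited table was 0.41, beside 0.02 over all genes. The 6 genes were chosen with earlier results of these data known, so neither comparison is an independent test.

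Txnip, the gene of the brake that also binds thioredoxin, lies on chromosome 3 (96557957 to 96561883, plus strand, GRCm38). It had 37639, 43150 and 29268 normalized counts in AThi libraries O10, O11 and O12, against 23907, 24999 and 15823 in ATlo libraries of the same tags and 24109 and 32506 in young D11 and D12. Every AThi library lay above every ATlo library, while the young range overlapped both; 10.8% of genes whose base mean was at least 100 had AThi above ATlo without overlap. Txnip averaged 36686 ± 6990 in AThi (SD, n = 3), 21576 ± 5013 in ATlo (n = 3) and 28308 ± 5938 in young HSCs (n = 2). For AThi against ATlo the authors' deposited table gives Txnip a log2 fold change of 0.77 (SE 0.20, adjusted p = 0.0041). Each pair of libraries with the same tag shows the difference too, at 0.65, 0.79 and 0.89 on the scale of log2(normalized count + 1). An RNA on the opposite strand, Gm15441, shares 606 exon bases with Txnip (19.4% of Txnip's exons), and the labels do not say whether reads were counted by strand. Gm15441 had 4359, 5673 and 3829 normalized counts in AThi, 2884, 2996 and 1976 in ATlo and 3175 and 4372 in young HSCs, so reads of the pair cannot be told apart where they overlap. Its log2 fold change for AThi against ATlo in the authors' deposited table was 0.82 (SE 0.21, adjusted p = 0.0041).

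Arrdc4, the gene of TXNIP's closest relative among the alpha-arrestins, lies on chromosome 7 (68736995 to 68749241, minus strand). It had 2658, 3538 and 2579 normalized counts in AThi O10, O11 and O12, against 1780, 1620 and 1158 in ATlo O10, O11 and O12 and 2230 and 1798 in young D11 and D12. The 3 groups did not overlap: all AThi libraries were highest, all ATlo libraries lowest and the young libraries between them. The highest ATlo library was at 0.990 of the lower young one. Of genes whose base mean was at least 100, 10.8% had AThi above ATlo without overlap, 14.6% AThi above young and 14.5% ATlo below young. The share of genes with all 3 was not computed. Arrdc4 averaged 2925 ± 532 in AThi (SD, n = 3), 1519 ± 323 in ATlo (n = 3) and 2014 ± 305 in young HSCs (n = 2), and the ATlo and young means lay closer than the sum of their SDs. For AThi against ATlo its log2 fold change in the authors' deposited table was 0.95 (SE 0.21, adjusted p = 0.00034). The same-tag differences were 0.58 for O10, 1.13 for O11 and 1.15 for O12.

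Slc2a3, which encodes the high-affinity transporter GLUT3, lies on chromosome 6 (122727809 to 122801640, minus strand). It had 5773, 5380 and 5334 normalized counts in AThi O10, O11 and O12, against 4125, 4166 and 3418 in ATlo O10, O11 and O12 and 4414 and 4178 in young D11 and D12. AThi libraries were again above all others, and the highest ATlo library was just below the lower young one. The shares of genes given for Arrdc4 apply here too. The means were 5495 ± 241 in AThi (SD, n = 3), 3903 ± 420 in ATlo (n = 3) and 4296 ± 167 in young HSCs (n = 2). For AThi against ATlo the log2 fold change of Slc2a3 in the authors' deposited table was 0.49 (SE 0.12, adjusted p = 0.0022), and same-tag differences of 0.48, 0.37 and 0.64 were computed from the normalized counts.

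Slc2a1 encodes GLUT1, a transporter whose surface level TXNIP is known to restrain, and lies on chromosome 4 (119108711 to 119137983, plus strand). Its normalized counts were 2403, 2952 and 1601 in AThi O10, O11 and O12, against 2055, 2446 and 1986 in ATlo O10, O11 and O12 and 1897 and 2589 in young D11 and D12. The groups overlapped throughout, at 2319 ± 680 in AThi (SD, n = 3), 2162 ± 248 in ATlo (n = 3) and 2243 ± 490 in young HSCs (n = 2). AThi was above ATlo in tags O10 (0.23) and O11 (0.27) and below it in O12 (-0.31). For AThi against ATlo the authors' deposited table gives Slc2a1 a log2 fold change of 0.10 (adjusted p = 0.89) with a 95% Wald interval of -0.35 to 0.55, which leaves room for a change as large as that of Slc2a3.

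The sensor genes Mlxip and Mlx were not called either. Mlxip, on chromosome 5 (123394798 to 123457932, plus strand), had 2692, 2876 and 2068 normalized counts in AThi O10, O11 and O12, against 1648, 2226 and 2200 in ATlo O10, O11 and O12 and 2585 and 2087 in young D11 and D12. Its groups overlapped, with a log2 fold change for AThi against ATlo of 0.33 (95% interval -0.05 to 0.71, adjusted p = 0.35) in the authors' deposited table. The Mlxip means were 2545 ± 423 in AThi (SD, n = 3), 2025 ± 326 in ATlo (n = 3) and 2336 ± 352 in young HSCs (n = 2).

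Mlx, on chromosome 11 (101087277 to 101092207, plus strand), had the fewest reads of the 6 genes. It had 381, 449 and 279 normalized counts in AThi O10, O11 and O12, against 368, 474 and 473 in ATlo O10, O11 and O12 and 416 and 304 in young D11 and D12. The groups overlapped, at 370 ± 85.5 in AThi (SD, n = 3), 438 ± 61.0 in ATlo (n = 3) and 360 ± 78.8 in young HSCs (n = 2). For Mlx the log2 fold change of AThi against ATlo in the authors' deposited table was -0.25 (95% interval -0.82 to 0.33, adjusted p = 0.74). On the opposite strand, Psmc3ip, known for a role in meiotic recombination, shares 385 exon bases with Mlx (19.3% of Mlx's exons). Psmc3ip was lower in AThi than in ATlo, with a log2 fold change of -1.08 in the authors' deposited table (SE 0.29, adjusted p = 0.0054), and its share in the Mlx counts was not tested.

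**Figure D1:**
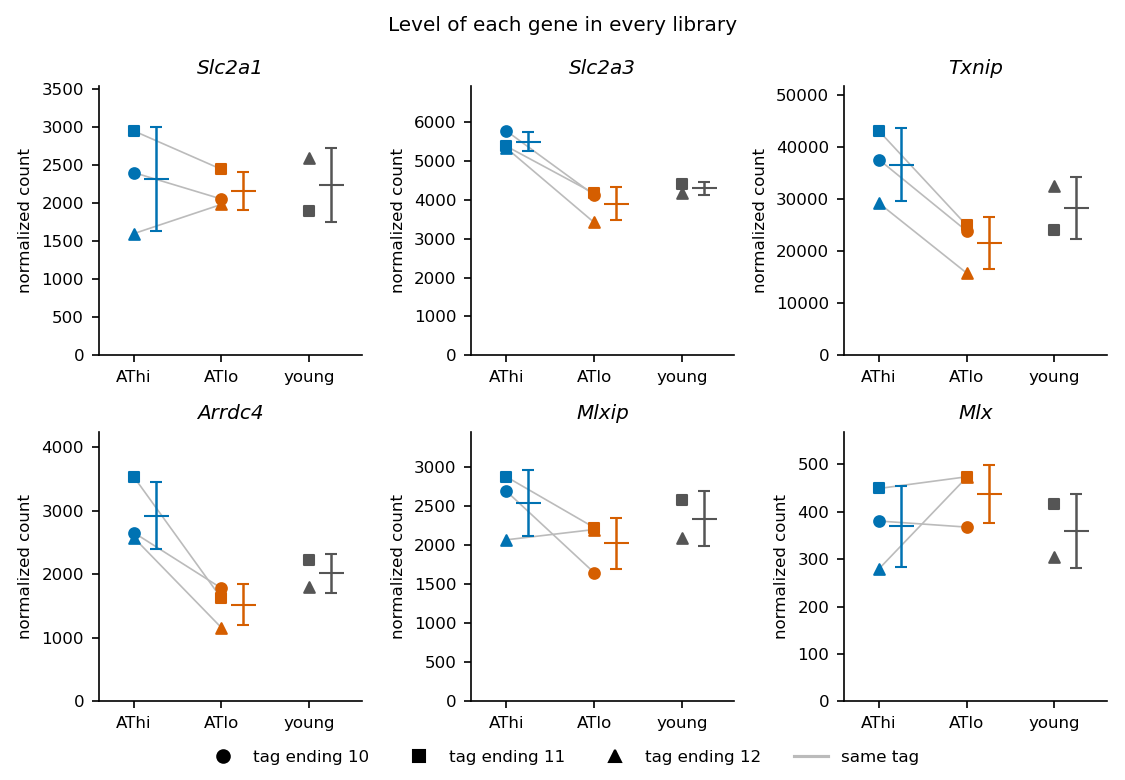
Normalized counts (y axes, linear, starting at 0) of each gene in the 8 libraries, with AThi, ATlo and young HSCs along the x axis; points are libraries, marker shapes give the last digits of the tag, grey lines join AThi and ATlo libraries of the same tag, and bars show the mean ± SD. All AThi points lie above all ATlo points for Slc2a3, Txnip and Arrdc4, while the groups overlap for Slc2a1, Mlxip and Mlx.

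AThi was above ATlo in all 3 tags for Slc2a3, Txnip and Arrdc4. The same held for 21.8% of genes whose base mean was at least 100. For Mlxip the same-tag differences were 0.71, 0.37 and -0.09, and for Mlx they were 0.05, -0.08 and -0.76. In tag O12, Slc2a1, Mlxip and Mlx were each lower in AThi, while Txnip, Arrdc4 and Slc2a3 showed their largest AThi excess there. The 3 pairs cannot reach significance in an exact test, so these differences are given as a description.

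**Figure D2:**
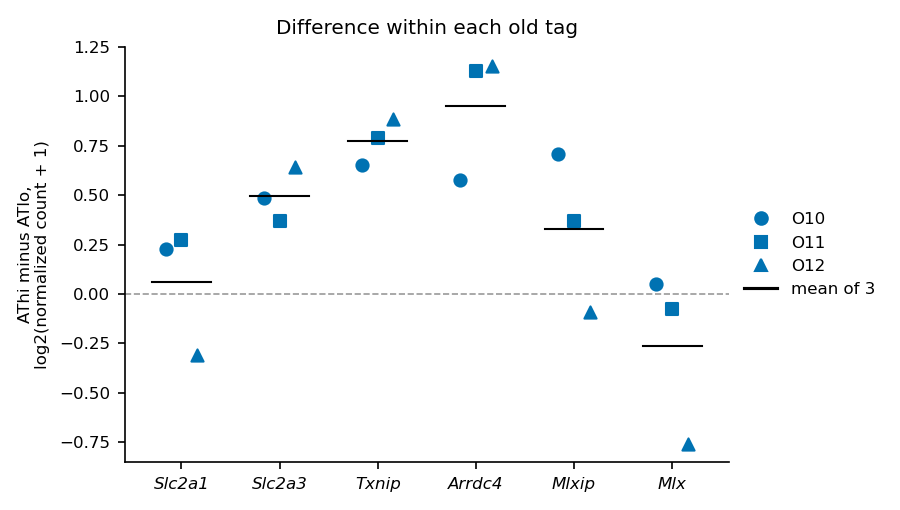
Difference between the AThi and the ATlo library of the same tag (y axis, log2 of normalized count + 1) for each gene (x axis); points are the tags O10, O11 and O12 and black lines their mean. All 3 points are above 0 for Slc2a3, Txnip and Arrdc4, and those of Slc2a1, Mlxip and Mlx fall on both sides of 0.

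The 3 calls between AThi and ATlo depended on the test. On the recovered reads, edgeR's quasi-likelihood test called 0 of the 6 genes, with 3 at an unadjusted p below 0.05. Its adjusted p-values were 0.062 for Arrdc4, 0.075 for Slc2a3 and 0.11 for Txnip. Over all genes edgeR called 280, of which 60 were higher in AThi, where the deposited test called 1414, of which 621 were higher. With the tag as a replicate block, DESeq2 called all 3 and edgeR called Txnip alone (adjusted p = 0.016). Over all genes the block gave 1954 calls by DESeq2 (939 higher in AThi) and 311 by edgeR (83 higher). Over 16 alternatives the adjusted p ran between 1.5e-06 and 0.062 for Arrdc4, 4.1e-17 and 0.11 for Txnip and 0.00093 and 0.15 for Slc2a3, and the log2 fold change stayed positive for each of the 3. Txnip lost its call without AThi library O11 (DESeq2 adjusted p = 0.053), and Slc2a3 lost it without the 3 libraries tagged 12 (adjusted p = 0.15). The 3 genes ran opposite to cell cycle genes, whose 10 members were all called lower in AThi than in ATlo. Calls of the deposited test in either direction made 7.9% of all genes tested. Summed normalized counts of the cell cycle genes were 42219 to 52015 in AThi, 107737 to 122021 in ATlo and 65860 to 82333 in young HSCs, none at 0. Summed HSC markers, given above, ran the same way as the 3 genes, with 3 of 10 called higher in AThi beside 3.47% of all genes. By edgeR 2 of 10 were called higher, and with the replicate block 6 by DESeq2 and 3 by edgeR, beside the counts over all genes given above. The part of cell cycle genes or HSC markers in the 3 differences was not tested. Of the other marker lists, 2 also lay higher in AThi without overlap. The summed T and NK cell markers in the tables (Nkg7 and Klrb1c, 2 of 7) were at 1600 to 3122 in AThi and 1252 to 1408 in ATlo, and the stromal and endothelial ones (Pecam1, Col1a1 and Kdr, 3 of 6) at 2133 to 3330 in AThi and 1800 to 1841 in ATlo; both sums were above 0 in all 8 libraries, and their part was not tested. Summed markers of B cells, erythroid cells, granulocytes, monocytes and megakaryocytes overlapped between AThi and ATlo. In bulk RNA, fewer cells of one kind and less RNA per cell cannot be told apart.

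Against young HSCs, none of the 6 genes was called in either fraction of old HSCs. In AThi against young HSCs, DESeq2 called 0 of 6 genes beside 5.04% of all genes, with 2 of the 6 at an unadjusted p below 0.05, and edgeR likewise called 0 with 2. The authors' deposited table gives log2 fold changes of 0.54 for Arrdc4 (95% interval 0.08 to 0.998, adjusted p = 0.21), 0.36 for Slc2a3 (0.08 to 0.63, adjusted p = 0.13) and 0.37 for Txnip (-0.07 to 0.81, adjusted p = 0.49). AThi libraries lay above both young ones without overlap for Arrdc4 and Slc2a3, as they did for 14.6% of genes whose base mean was at least 100. Slc2a1, Mlxip and Mlx were at 0.05, 0.12 and 0.04 on the log2 scale in the authors' deposited table, with adjusted p-values of 0.98, 0.92 and 0.99. Leaving out the 3 libraries tagged 12 leaves D11 as the lone young library and assumes it to vary like the other groups. In that fit Txnip was higher in AThi at a log2 fold change of 0.75 (DESeq2). Of the libraries left, young D11 was at 97743 normalized counts of Xist and the old ones at 32.5 to 171. The part of this in the Txnip differences from young HSCs was not tested.

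In ATlo against young HSCs, DESeq2 and edgeR each called 0 of 6 genes, with 0 at an unadjusted p below 0.05 in either, beside 4.34% of all genes called by DESeq2. The authors' deposited table gives log2 fold changes of -0.41 for Arrdc4 (95% interval -0.87 to 0.05, adjusted p = 0.43), -0.39 for Txnip (-0.83 to 0.05, adjusted p = 0.43) and -0.14 for Slc2a3 (-0.41 to 0.13, adjusted p = 0.75). The ATlo libraries of Arrdc4 and Slc2a3 lay below both young ones, the highest of them at 0.990 of the lower young value for Arrdc4 and 0.997 for Slc2a3, and 14.5% of genes whose base mean was at least 100 lay below without overlap. For Slc2a1, Mlxip and Mlx the authors' deposited table gives -0.05, -0.21 and 0.28 on the log2 scale, with adjusted p-values of 0.97, 0.77 and 0.80. By mean, both arrestin genes ran AThi, young and ATlo from high to low, and of these pairs AThi against ATlo was called. For Txnip the place of young HSCs was not settled: young D11 lay below ATlo O11, and without the 3 libraries tagged 12 the log2 fold change of ATlo against young was 0.026 (DESeq2). Each pair of contrasts shares a group of libraries, so the 3 columns of values are not independent of each other.

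**Figure D3:**
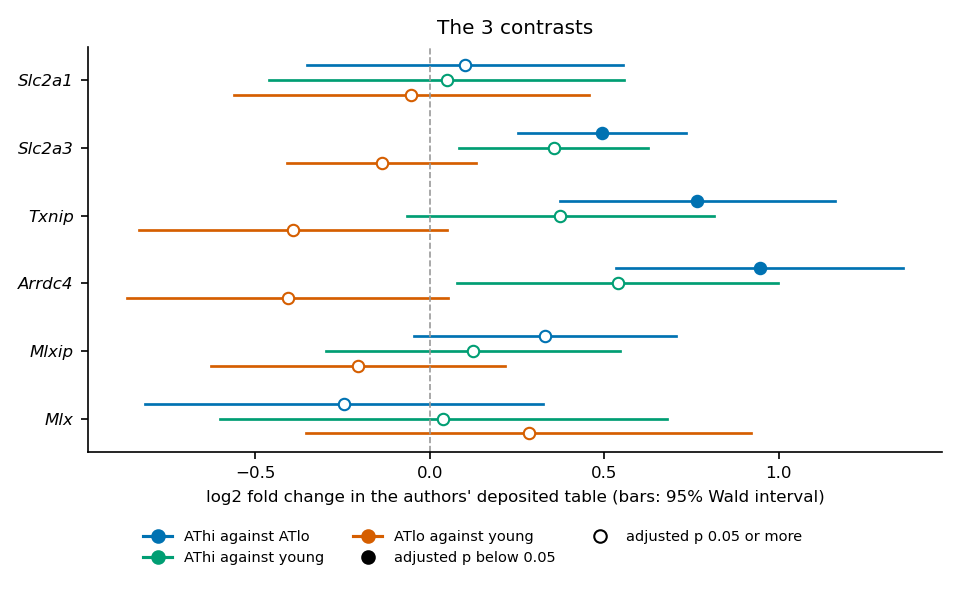
Log2 fold change from the authors' deposited table (x axis) of each gene (y axis) for AThi against ATlo, AThi against young and ATlo against young; bars are 95% Wald intervals and filled points have an adjusted p below 0.05. Filled points occur in AThi against ATlo alone, for Slc2a3 (0.49), Txnip (0.77) and Arrdc4 (0.95).

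Per kilobase of exon, Txnip was by far the highest of the 6 genes. On the scale of normalized counts per kilobase of merged exons, its level was 11747 in AThi, 6909 in ATlo and 9064 in young HSCs, and its mean over the 8 libraries ranked 141 of 15046 genes with a length. The transporters and Arrdc4 followed. Slc2a3 was at 759 ± 33.3 in AThi (SD, n = 3), 539 ± 58.0 in ATlo (n = 3) and 593 in young HSCs. Slc2a1 was at 661 ± 194 in AThi (SD, n = 3), 617 ± 70.8 in ATlo (n = 3) and 640 in young HSCs, and Arrdc4 at 724 ± 132 in AThi (n = 3), 376 ± 80.0 in ATlo (n = 3) and 499 in young HSCs. These 3 genes lay within their spread in AThi, while in ATlo Arrdc4 lay below both transporters by more than the sum of the SDs. Mlxip was at 306 in AThi, 243 in ATlo and 281 in young HSCs, and Mlx, the lowest, at 185 in AThi, 219 in ATlo and 180 in young HSCs. The order of the transporters depends on the length used: with the principal transcript of GENCODE M21, an alternative added after the data were seen, Slc2a3 was at 1388 in AThi, 986 in ATlo and 1085 in young HSCs, above Slc2a1 at 711 in AThi, 663 in ATlo and 688 in young HSCs and Arrdc4 at 749 in AThi, 389 in ATlo and 516 in young HSCs. The ratio of Txnip to Slc2a1 per kilobase was 16.4 to 20.5 in AThi, 8.95 to 13.1 in ATlo and 14.1 to 14.3 in young libraries. The ratio of Mlxip to Mlx was 1.54 to 1.78 in AThi, 1.08 to 1.13 in ATlo and 1.49 to 1.65 in young libraries. Both ratios were picked after the values were seen and have no test, and Mlx shares exon bases with Psmc3ip as given above. For the other ratios computed, AThi and ATlo overlapped. The ratio of Txnip to Arrdc4 was 14.7 to 18.3 in AThi and 17.4 to 20.0 in ATlo. That of Slc2a3 to Slc2a1 was 0.882 to 1.61 in AThi and 0.824 to 0.971 in ATlo.

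The genes most like each of the 6 were sought by Pearson's r of log2(normalized count + 1) over the 8 libraries, among 11049 named genes whose base mean was at least 100; the libraries share groups, tags and depth, so r is a description. Arrdc4 was most like Rin2 (r = 0.98), Nbea (0.97) and Norad (0.96), and Slc2a3 most like Pbxip1 (0.99), Sgms1 (0.98), a sphingomyelin synthase, and Zfp36l2 (0.97), an mRNA decay factor. Among the genes most like Txnip were Tbc1d9 (0.96) and Fgd5 (0.96), which is also one of the HSC markers listed. The genes nearest to Slc2a1 were Ercc2 (0.97), a DNA repair helicase, Map4 (0.92) and Cd81 (0.92). Mlxip was most like Rtl8c (0.97), Mapkbp1 (0.96) and Zfp341 (0.94), and Mlx most like Cln6 (0.96), Cchcr1 (0.95) and Taf5 (0.94). Among the 6 genes, r was 0.93 between Arrdc4 and Slc2a3, 0.88 between Arrdc4 and Txnip and 0.86 between Slc2a3 and Txnip. Mlx had r of -0.34 with Slc2a3 and -0.30 with Txnip.

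Beyond Txnip and Arrdc4, the other alpha-arrestins were not called between AThi and ATlo (0 of 3 by DESeq2 and by edgeR, 2 at an unadjusted p below 0.05 in each), with a median log2 fold change of 0.65. DESeq2 called 7.9% of all genes tested there. With the replicate block, DESeq2 called Arrdc3, which targets beta-adrenergic receptors and other cargo for degradation, higher in AThi than in ATlo (log2 fold change 0.61, adjusted p = 0.0034), and edgeR did not (adjusted p = 0.090). Arrdc3 was called in 3 of 16 alternatives there, also without AThi O11 (DESeq2 adjusted p = 0.030) and without ATlo O12 (0.038), and its adjusted p ran between 0.0034 and 0.45. Arrdc3 was lower in ATlo than in young HSCs. Its log2 fold change in the authors' deposited table was -0.94 (SE 0.29, adjusted p = 0.031), and it was called in 8 of 14 alternatives. None of 7 other hexose transporters tested was called in any contrast by DESeq2, with 1 at an unadjusted p below 0.05 in AThi against ATlo and 0 in the other 2 contrasts, and edgeR called 0 of 9. Over all genes tested, DESeq2 called 7.9% in AThi against ATlo, 5.04% in AThi against young and 4.34% in ATlo against young. The most abundant of these transporter genes, the sugar efflux gene Slc50a1, had a log2 fold change of -0.15 for AThi against ATlo in the authors' deposited table (adjusted p = 0.80).

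In the thioredoxin system, Txn1, the gene of the cytosolic thioredoxin that TXNIP binds, was lower in AThi than in ATlo. Txn1 averaged 5410 ± 378 normalized counts in AThi (SD, n = 3), 8387 ± 731 in ATlo (n = 3) and 7070 ± 7.93 in young HSCs (n = 2). Its log2 fold change for AThi against ATlo in the authors' deposited table was -0.63 (SE 0.12, adjusted p = 4.0e-06), the opposite direction to Txnip, and it was called in 16 of 16 alternatives. Txn1 was the 1 gene of 5 called there, beside 7.9% of all genes tested, and the median of the list was -0.02. The mitochondrial thioredoxin gene Txn2 was higher in ATlo than in young HSCs in the authors' deposited table (0.76, SE 0.24, adjusted p = 0.042), in 5 of 14 alternatives, and the reductase gene Txnrd1 was at -0.02 for AThi against ATlo (adjusted p = 0.97).

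Of 14 ligases and kinases that act on TXNIP, 1 was called between AThi and ATlo, beside 7.9% of all genes tested. Itch, the ubiquitin ligase that marks TXNIP for degradation, had a log2 fold change of 0.29 in the authors' deposited table (SE 0.10, adjusted p = 0.044), a call that 3 of 16 alternatives kept and the replicate block lost (DESeq2 adjusted p = 0.076, within a range of 0.038 to 0.50). Itch was lower in ATlo than in young HSCs by the authors' deposited table, at -0.35 (SE 0.11, adjusted p = 0.038), kept in 3 of 14. The AMP kinase subunit gene Prkaa1, whose product phosphorylates TXNIP, was at 0.08 (adjusted p = 0.90) for AThi against ATlo in the authors' deposited table, and the ligase gene Nedd4 at 0.02 (adjusted p = 0.97).

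Of 14 genes of glucose transporter trafficking, 0 were called between AThi and ATlo by DESeq2 or edgeR, with 1 at an unadjusted p below 0.05 in each and a median log2 fold change of 0.02. DESeq2 called 7.9% of all genes tested there. Stom, whose product stomatin binds GLUT1 in the membrane of red cells, was higher in both old fractions than in young HSCs. The authors' deposited table gives it log2 fold changes of 1.32 for AThi against young (SE 0.29, adjusted p = 0.00029) and 1.29 for ATlo against young (SE 0.29, adjusted p = 0.00054), each called in 12 of 14 alternatives. Normalized counts of Stom averaged 666 ± 105 in AThi (SD, n = 3), 652 ± 143 in ATlo (n = 3) and 267 ± 7.27 in young HSCs (n = 2). Megakaryocyte and platelet markers (7 of 8 in the tables) were also higher in old HSCs, at 9572 to 11344 summed normalized counts in AThi and 9721 to 14030 in ATlo, against 3708 and 4144 in young HSCs. Erythroid markers (7 of 8) were at 672 to 1850 in AThi and 1089 to 2985 in ATlo, against 2270 and 3287 in young HSCs, and the part of either in the Stom difference was not tested. The retromer gene Vps35, which returns GLUT1 to the cell surface, was at -0.04 for AThi against ATlo in the authors' deposited table (adjusted p = 0.90).

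Hexokinases trap the glucose that transporters admit. Of 3 tested between AThi and ATlo 1, Hk2, was called, beside 7.9% of all genes tested. With the replicate block, DESeq2 called Hk2 and Hk3 higher in AThi than in ATlo, and 1954 genes in all. With that block edgeR called 0 hexokinases, with 2 at an unadjusted p below 0.05, and 311 genes in all. Hk2 averaged 3080 ± 412 normalized counts in AThi (SD, n = 3), 2106 ± 274 in ATlo (n = 3) and 1471 ± 46.7 in young HSCs (n = 2). In the authors' deposited table it was higher in AThi than in young HSCs (log2 fold change 1.07, SE 0.18, adjusted p = 7.1e-07), called in 14 of 14 alternatives, and higher in AThi than in ATlo (0.55, SE 0.16, adjusted p = 0.015), called in 10 of 16. The housekeeping form Hk1 was at -0.02 for AThi against ATlo in the authors' deposited table (adjusted p = 0.96).

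Genes of other MLX and MAX partners were called in no contrast: 0 of 5 by DESeq2 and by edgeR, with 0, 1 and 2 at an unadjusted DESeq2 p below 0.05 in AThi against ATlo, AThi against young and ATlo against young. Over all genes tested, DESeq2 called 7.9%, 5.04% and 4.34% in the same contrasts. Mlxipl, which encodes the MondoA relative ChREBP, was not analysed here. Mga, the most abundant of the list, was at 0.15 (adjusted p = 0.59) for AThi against ATlo in the authors' deposited table, and Max, the partner of MYC, at 0.22 (adjusted p = 0.44).

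**Figure D4:**
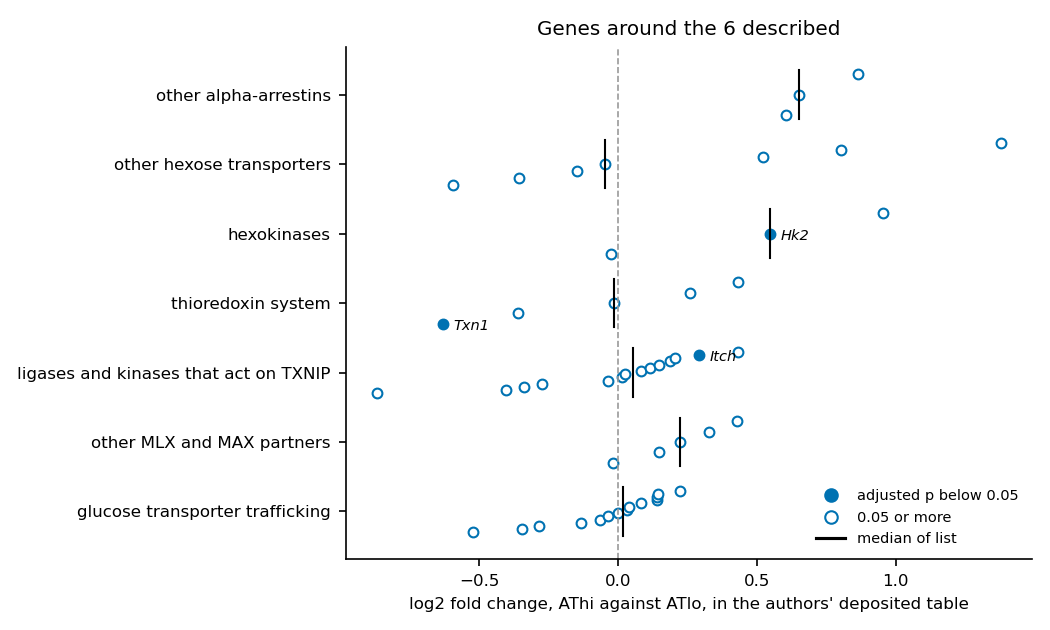
Log2 fold change for AThi against ATlo from the authors' deposited table (x axis) of the tested genes of 7 lists (y axis); each point is a gene, filled where the adjusted p is below 0.05, and black lines mark the median of a list. Txn1 (-0.63), Hk2 (0.55) and Itch (0.29) are the filled points.

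The paired motif of Txnip was also searched for in the windows of all genes. Of 15 genes whose window held it, Txnip among them, 11 were tested between AThi and ATlo. Txnip itself was called higher and Rbmxl1 lower (log2 fold change -0.84, adjusted p = 0.00050, in the authors' deposited table). Calls in either direction made 7.9% of all genes tested. The log2 fold changes of the other 9 ran between -0.74 and 0.39 in the authors' deposited table, with no call among them.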

How the data were processed

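Each library was made from about 10000 HSCs with RNA integrity above 9.0 over 2 sort days, and all were prepared at one time with a low-input kit for 50-base paired-end reads, per the labels' protocols. Which library belongs to which sort day is not given in the sources used. The submitters' processing notes name FastQC, MultiQC, STAR, featureCounts and DESeq2, and the build GRCm38. They give no version, annotation or strand setting.

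For each of 3 contrasts over 19909 genes the authors deposited a log2 fold change, its error, the Wald score, the p-value before and after adjustment, and the mean signal over libraries (base mean). The authors also deposited 8 columns of normalized signal, which are counts over 1 factor per library. Whole reads were recovered within 0.01 for 100% of values once each column was divided by its smallest step. Columns were matched to groups by name. A refit with DESeq2 1.42.0 on these reads gave the same 1414, 961 and 811 calls as the authors' deposited tables for AThi against ATlo, AThi against young and ATlo against young. edgeR 4.0.16, with its quasi-likelihood test, called 280, 240 and 130. Libraries within a group differed by more than sampling noise (a chi-square of 51.2 to 107 per degree of freedom), and ribosomal RNA genes took 27.1% to 36.1% of reads. The old tags pair AThi with ATlo: the labels speak of 3 paired replicates, and deviations from group means correlated at 0.21, 0.16 and 0.37 for the same tag over 13611 genes and at most 0.03 for other tags. Replicates are separate mice per the labels. Every AThi library had fewer reads than every ATlo library, and the part of depth in their differences was not tested.

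The 6 genes and the lists were chosen with earlier results of these data known. Each of the 6 is named whatever its p. Of each list, genes called in any contrast and up to 3 others with the highest base mean may be named, and, for likeness, the 3 genes with the highest r, of which 1 is not reported here. Exon lengths and positions come from GENCODE M21 (GRCm38), promoters from RefSeq (GRCm38.p6). Alternatives were another test, other scaling, no independent filtering, a base mean of at least 10, fits of 2 groups, leaving out each library or the 3 libraries tagged 12, and the tag as a block. The fits were tested on simulated data. A deposited table of upstream regulators was not used, as none of the 6 genes stands in it.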

Additional observations from a re-analysis of the deposited data

How the results depend on the processing

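Over all alternatives, 246 values of the 6 genes kept their direction and side of the threshold, 7 lost a call, 1 gained one and 10 changed sign. The number of the 6 genes called for AThi against ATlo was 0 with edgeR, 1 with edgeR and the replicate block, and 2 to 3 when each library was left out; for AThi against young it was 1 without the 3 libraries tagged 12. Over all genes, AThi against ATlo gave 280 calls with edgeR, 311 with edgeR and the block, 793 without the libraries tagged 12 and 932 to 1422 when each library was left out (932 without ATlo O11). AThi against young gave 240, 582 without those tagged 12 and 585 to 1093 (585 without young D12). ATlo against young gave 130, 482 and 362 to 894 (362 without young D11). Sign changes were confined to uncalled values: leaving out 1 library gave Slc2a1 -0.11 to 0.31 for AThi against ATlo, -0.17 to 0.29 for AThi against young and -0.25 to 0.19 for ATlo against young, Mlx -0.17 to 0.28 and Mlxip -0.021 to 0.29 for AThi against young, Stom -0.13 to 0.18 for AThi against ATlo and Itch -0.12 to 0.0034 for AThi against young. Without the libraries tagged 12, ATlo against young gave 0.25 for Slc2a1 and 0.026 for Txnip. The tag block changed no call of the 6 genes in DESeq2. A RefSeq transcript length was not run, since the table given holds gene spans. Causes of these changes were not tested. Depth limits Mlx, at 260 to 608 reads a library, and the young group rests on 2 libraries.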
